A study of Mus musculus with 12 samples.

Results

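Mir-126 is the miRNA made from an intron of Egfl7, a gene of blood vessel endothelium. Its members were taken by name: every row whose first name element is Mir-126. This gave 2 of the 513 miRNA arms in the table, the 3p and the 5p arm of the hairpin, and both were among the 474 arms tested. Each row joins 3 processing variants of the same arm (v1, v2 and v3), which the table does not separate, and the names mark 3p as the passenger arm in v1 only. The libraries come from the hippocampus of 12 wild-type male C57BL/6J mice of the F2 generation, an inbred laboratory strain. They fall into an exercised lineage of 6 mice, grandsons by patrilineal descent of males that had exercised, and a sedentary lineage of 6 mice, grandsons of sedentary males. The labels report no treatment of the grandsons themselves and no age. The question asked of both groups is whether a grandfather's exercise is associated with hippocampal miRNA levels in his grandsons.

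Mir-126 is known as one of the most endothelial of miRNAs. Its 3p arm lowers Spred1 and Pik3r2, inhibitors of signalling downstream of the VEGF receptor, and loss of the miRNA makes vessels leak in mouse embryos. The 5p arm is also used by endothelial cells, where it lowers the Notch ligand Dlk1, and blood stem cells and platelets carry the miRNA as well. In the brain the vessel wall is a minor part of the tissue, so a bulk library mixes its RNA with that of neurons and glia. In such libraries fewer cells of a type and less RNA per cell cannot be told apart.

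The sequence of the 3p arm is shown first because it carries nearly all Mir-126 reads, with its seed (bases 2 to 8, the part that pairs with targets) in capitals. The hairpin follows, with the 3p arm in capitals, to show where that arm lies. Both are written 5′ to 3′ and come from RefSeq on GRCm38.p6, the build also called mm10.
mmu-miR-126a-3p: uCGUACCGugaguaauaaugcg
Mir126a hairpin: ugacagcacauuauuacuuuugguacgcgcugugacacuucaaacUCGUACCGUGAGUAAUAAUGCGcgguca
The 3p arm is 22 bases long and lies at chr2:26591402-26591423 on the plus strand, within the 73-base hairpin at chr2:26591357-26591429. It fills bases 46 to 67 of the hairpin. In the fold predicted by RNAfold (-31.2 kcal/mol), 19 of its 22 bases were paired, including all 7 of the seed. Of 1738 mature mouse entries in the RefSeq table, 1 held this seed, so no other entry there shared it. Mir126b lies on the opposite strand over the same place, at chr2:26591363-26591420. Egfl7 spans chr2:26580014-26593120 in the GENCODE M21 annotation, on the same strand as Mir126a. The hairpin sits in intron 7 of a 10-exon Egfl7 transcript (chr2:26591064-26591663), 293 bases after the exon before it and 234 bases ahead of the next. Of 19 annotated Egfl7 transcripts 9 span it, and 1, a retained-intron transcript, has an exon over it.

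Levels are given as normalized counts: each library's reads on an arm, scaled by that library's size factor. All values were whole multiples of 1 step per library, and reads are given here with that step taken as 1 read. On that reading, libraries held 6862623 to 10219856 reads, of which Mir-126_3p took 76070 to 131327 and Mir-126_5p 4304 to 12890. The error of counting alone would then be at most 0.363% of the 3p and 1.52% of the 5p value. The sum of normalized counts differed up to 1.45-fold between libraries. The submitters' sample codes begin with 1 of 4 stems, each carried by 3 libraries. Exercised replicates 1 to 3 carry R31 and replicates 4 to 6 R41, and sedentary replicates 1 to 3 carry S11 and replicates 4 to 6 S41. The labels do not say what a stem stands for.

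Mir-126_3p did not differ detectably between the lineages. It ranged from 78046 over a median of 96661 to 114062 normalized counts in the exercised lineage, and from 85787 over 98032 to 108170 in the sedentary lineage. Both the lowest and the highest library were in the exercised lineage, so the sedentary values lay inside the exercised range. The means were 95058 ± 14205 and 97490 ± 7738 (SD, n = 6 each, exact two-sided permutation p = 0.708), and 3 of 6 exercised libraries lay below the sedentary median. In limma the fold, exercised minus sedentary on the log2(value + 1) scale, was -0.05 (SE 0.10, 95% confidence interval -0.27 to 0.17, adjusted p = 0.908). As a ratio this interval runs from 0.831 to 1.13. The same fit called 0 of 474 arms at an adjusted p below 0.05, a background of 0%, while 34 arms had an unadjusted p below 0.05. The sign of the 3p fold was not stable: it was 0.04 with library totals as the scale, 0.01 without exercised replicate 1, 0.13 without the R31 libraries and -0.22 without the R41 libraries.

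Mir-126_5p was higher on average in the exercised lineage, but not beyond the spread between libraries. Its values ran from 6907 over a median of 7836 to 11927 in the exercised lineage and from 5336 over 7008 to 8951 in the sedentary lineage. Exercised replicate 1 (11927) and replicate 6 (10268) stood above every sedentary library, and the other 4 lay within the sedentary range. The means were 8634 ± 2027 and 7141 ± 1294 (SD, n = 6 each, exact two-sided permutation p = 0.169). The limma fold was 0.26 (SE 0.16, 95% confidence interval -0.08 to 0.61, adjusted p = 0.532), with 5 of 6 exercised libraries above the sedentary median. As a ratio it was 1.20, with an interval from 0.947 to 1.52. The fold was 0.16 without exercised replicate 1 and 0.15 without the S11 libraries. Of the arms tested, 25.5% had a larger absolute fold than Mir-126_5p and 81.4% a larger one than Mir-126_3p.

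**Figure D1:**
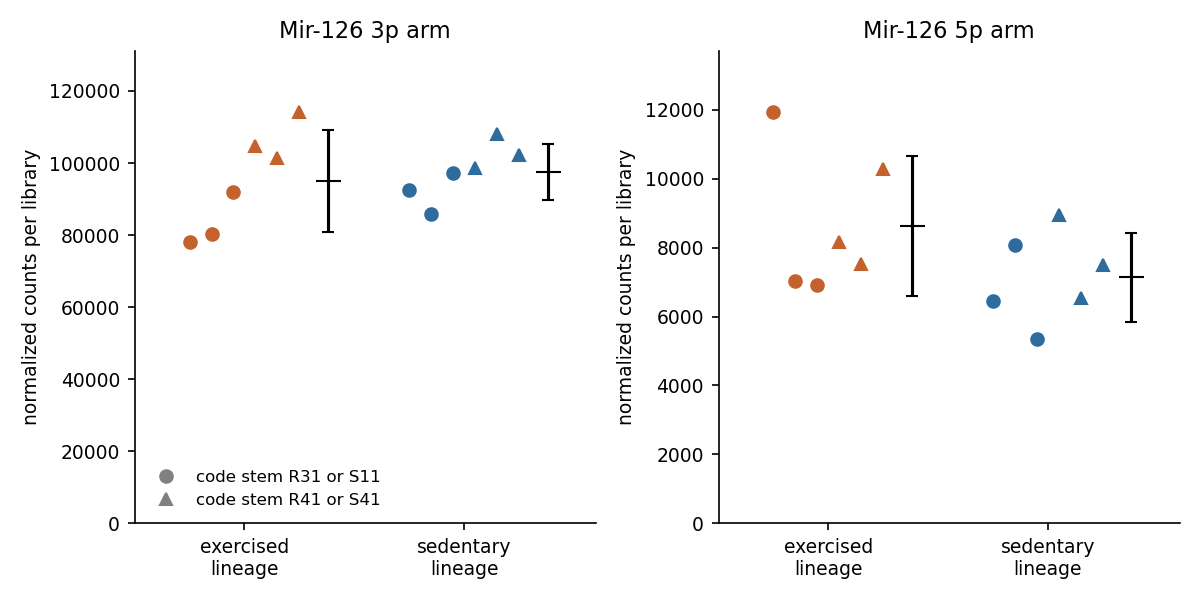
Normalized counts of Mir-126_3p and Mir-126_5p in each of the 12 libraries, by lineage, with the mean and SD of each lineage. The 3p values run from 78046 to 114062 and the 5p values from 5336 to 11927, and the lineages overlap in both arms.

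The 3p arm was an abundant and evenly expressed miRNA. It ranked 18th of 513 arms by mean (96274), from 17th to 23rd in single libraries, and spanned 1.46-fold from the lowest to the highest library. Its SD over the 12 libraries was 0.17 log2, and 13.7% of the tested arms had a lower one. In the order of means, Mir-154-P13_5p (117374) was above it in 12 of 12 libraries. Mir-27-P1_3p (104219), an arm of a vessel-linked family, was above it in only 5 libraries, Let-7-P3_5p (86333) in 5 and Mir-7-P1_5p (83520), a neuronal arm, in 4. The order of Mir-126_3p and these 3 arms thus changed from library to library. Such an order compares reads of different sequences, which library preparation can capture unequally.

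The 5p arm ranked 77th (mean 7888), from 60th to 85th in single libraries, and spanned 2.23-fold. Its SD was 0.31 log2 against a median of 0.29 over the tested arms, with 56.8% of them lower. Its neighbours in mean were Mir-744_5p (7984), Mir-148-P2_3p (7966), Let-7-P2_5p (7873) and Mir-181-P2c_5p (7681). They were above it in 5, 9, 6 and 7 of 12 libraries, so none lay on the same side of it in every library. Both arms together made up 1.28% ± 0.14 of all counts in exercised-lineage libraries and 1.22% ± 0.11 in sedentary-lineage ones (n = 6 each, SD; exact two-sided permutation p = 0.448).

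The 2 arms come from the same precursor. Within a library both are divided by the same size factor, so their ratio does not depend on how libraries are scaled. For each 5p read there were 6.54 to 18.2 3p reads. The log2 ratio of 5p to 3p ran from -3.75 over a median of -3.60 to -2.71 in the exercised lineage and from -4.19 over -3.81 to -3.41 in the sedentary lineage. All 6 exercised libraries lay above the sedentary median, and the ranges overlapped. The means were -3.48 ± 0.39 and -3.79 ± 0.31 (SD, n = 6 each, exact two-sided permutation p = 0.156). In limma over 155 hairpins with both arms measured, the difference was 0.31 (SE 0.18, 95% confidence interval -0.07 to 0.69, adjusted p = 0.453), and 0 of 155 hairpins were called (0%; 13 had an unadjusted p below 0.05). Exercised replicate 1, with 13.3% of its Mir-126 reads on the 5p arm, contributed much of the difference, which was 0.16 without it, 0.15 without all R31 libraries and 0.47 without the R41 libraries.

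Counting error of the log2 ratio, with the same step as 1 read, was at most 0.0226 in any library, far below the SD of 0.37 between libraries. That SD was close to the median of 0.39 over the 155 hairpins, and 75 of them had a lower one. By mean log2 ratio Mir-126 stood 33rd from the end where 3p exceeds 5p most, between Mir-221-P2 (-3.68), of another vessel-linked family, and Mir-8-P1a (-3.58). The 3p arm exceeded the 5p arm in 69 of the 155 hairpins.

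**Figure D2:**
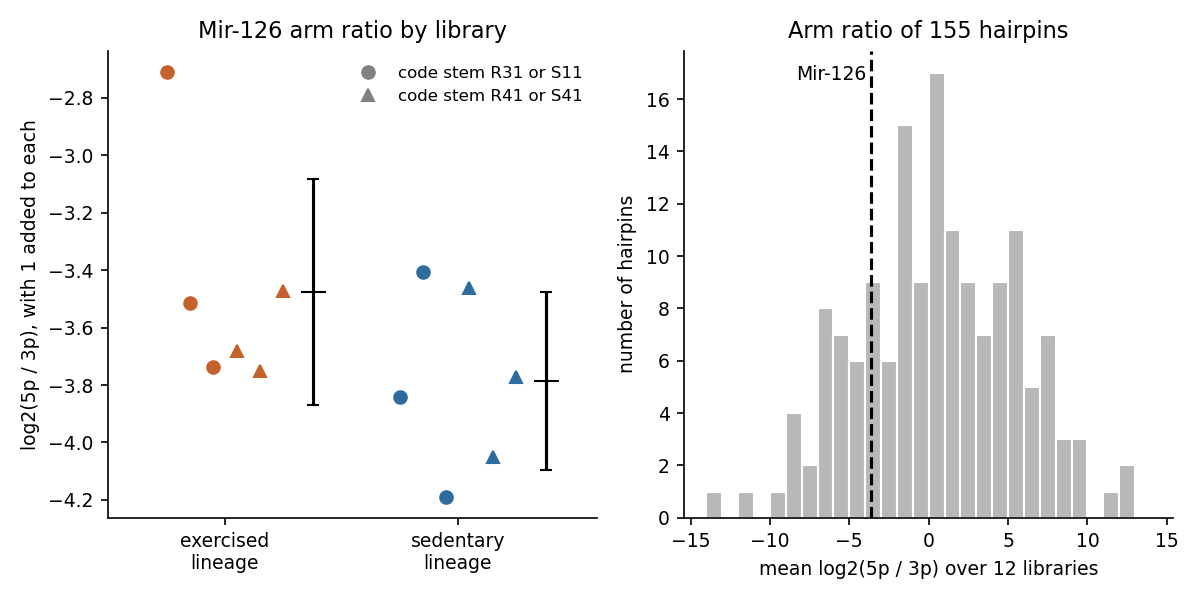
Log2 ratio of Mir-126_5p to Mir-126_3p, by lineage and library and beside the other hairpins with both arms measured. Exercised replicate 1 (-2.71) stands above the other 11 libraries, and Mir-126 is 33rd of 155 hairpins from the 3p-dominant end.

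Within each lineage, Mir-126_3p differed between the sets of libraries that share a code stem. It was 78046, 80269 and 92045 in R31 against 104646, 101277 and 114062 in R41. In the sedentary lineage it was 92625, 85787 and 97316 in S11 against 98749, 108170 and 102293 in S41. In both lineages the 41 set lay wholly above the other, and the labels do not link R41 with S41. Of the 474 arms 3 (0.633%) had this pattern, and 0 arms had the opposite one. The others were Mir-143_3p and Mir-145_3p*, both from the same cluster, which is typical of smooth muscle and pericytes, the mural cells of vessels. How many arms would have the pattern by chance was not tested.

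The fit with stems did not call these differences. For Mir-126_3p it gave 0.36 (SE 0.10, adjusted p = 0.414 in limma) for R41 minus R31 and 0.17 (SE 0.10, adjusted p = 0.999) for S41 minus S11. It called 0 of 474 arms (0%), with 26 at an unadjusted p below 0.05. With library totals as the scale the first difference was 0.13 and the second 0.21, and the R31 and R41 values then overlapped. On that scale 1 arm had the pattern, Mir-145_5p. The stem sets were compared after their values had been seen.

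Mir-143_3p, the most abundant mural arm, had 278461, 224174 and 244765 normalized counts in R31 against 572958, 302783 and 565785 in R41. In S11 it had 287670, 244406 and 323905, against 615012, 374503 and 490186 in S41. Mir-143_3p was picked by this same pattern, so its higher values in the 41 sets are no separate support for it. The sets overlapped in Mir-126_5p in both lineages. It was 11927, 7029 and 6907 in R31 and 8158, 7514 and 10268 in R41. In S11 it was 6460, 8084 and 5336, against 8951, 6533 and 7483 in S41. Its limma difference was 0.04 (SE 0.23) for R41 minus R31 and 0.22 (SE 0.23) for S41 minus S11.

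The 2 arms of Mir-126 did not move together over the 12 libraries (r = -0.14, permutation p = 0.678; rho = 0.04, p = 0.904; adjusted p = 0.743 and 0.904). Without the 2 libraries farthest from the 3p median r was 0.34. It was -0.49 within stem sets and 0.46 with library totals as the scale, so its sign depended on the scaling. This was 1 of 13 relations, the others being each arm against the summed level of 6 marker lists.

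Of the 12 list relations, 2 passed the threshold. Mir-126_3p rose with the summed mural and mesenchymal list (Mir-143, Mir-145, Mir-199 and Mir-214 arms). This sum is nearly all Mir-143_3p, with a mean of 377051 against 1428 for the next arm, Mir-145_5p. Pearson's r was 0.75 (permutation p = 0.00561, adjusted p = 0.0365) and Spearman's rho 0.80 (p = 0.00243, adjusted p = 0.0316). Without the 2 libraries farthest from the 3p median r was 0.72 (unadjusted permutation p = 0.0176), and within lineages it was 0.74. With library totals as the scale r was 0.68. Within stem sets r was 0.17, a value that was not tested, so the relation was seen mainly between the sets of libraries. The permutations shuffled libraries freely across stem sets, so their p does not allow for these sets. Mir-143_3p shares the stem pattern of Mir-126_3p given above, so the relation is no separate result. The microglia and leukocyte sum was led by Mir-146-P2_5p, with a mean of 14333 against 1351 for the next arm, Mir-150_5p. Mir-126_5p fell with this list (r = -0.78, permutation p = 0.00249, adjusted p = 0.0324, and rho = -0.70, p = 0.0143, adjusted p = 0.0929). Without the 2 libraries farthest from the 5p median it did not pass (r = -0.53, unadjusted permutation p = 0.112), so the call did not hold without them. Leaving them out also narrows the range of 5p and the number of libraries, which by itself weakens a test. The sign did not change: r was -0.73 within lineages, -0.88 within stem sets and -0.87 with library totals as the scale. Against the endothelial and angiogenesis list, Mir-126_3p had an r of -0.42 (permutation p = 0.177, adjusted p = 0.382) and a rho of -0.50 (p = 0.0976, adjusted p = 0.254), opposite in sign to its relation with the mural list. With library totals as the scale that r was 0.14. Mir-126_5p had an r of 0.30 with the endothelial list (permutation p = 0.335, adjusted p = 0.564; rho = 0.35, adjusted p = 0.433), and 0.79 with library totals as the scale.

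**Figure D3:**
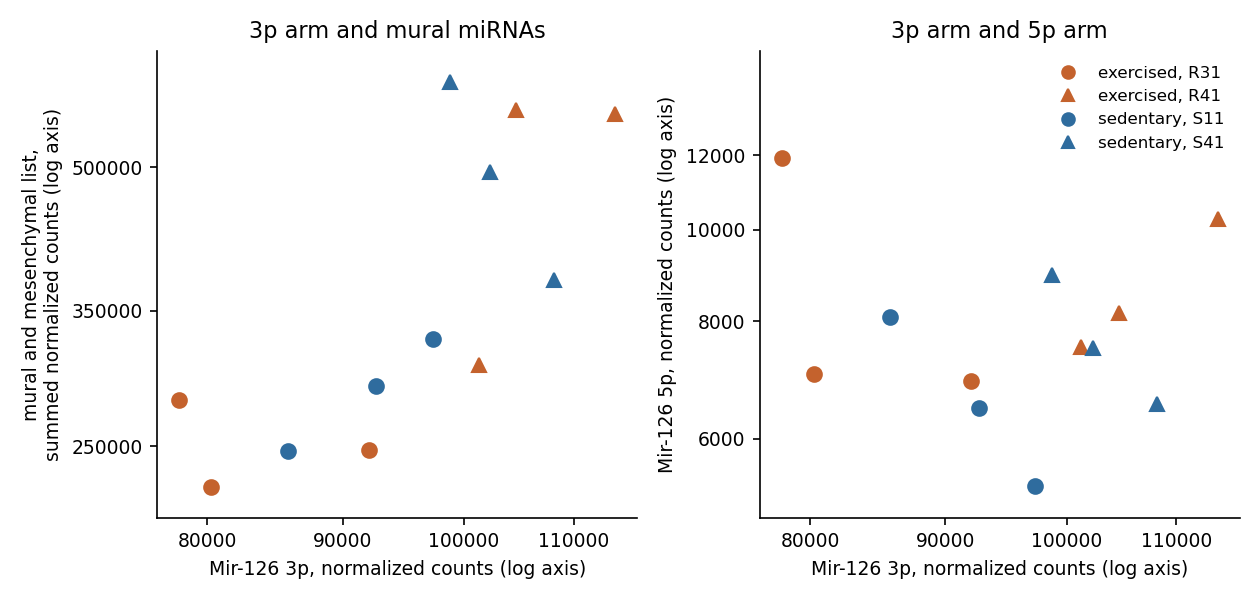
Left, summed normalized counts of the mural and mesenchymal list against Mir-126_3p. Right, Mir-126_5p against Mir-126_3p. Both axes are logarithmic, each point is 1 of 12 libraries, colour gives the lineage and shape the code stem. On the left the R41 and S41 libraries lie at higher 3p values than the R31 and S11 libraries of their lineage (r = 0.75 over all, 0.17 within stem sets); on the right there is no common direction (r = -0.14).

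Over all other arms, none passed the test of likeness to the summed Mir-126 level. With the authors' scaling, arms of the mural list were among the highest, and the lowest arm came from the endothelial and angiogenesis list. The summed level is the total of both arms, of which 3p makes up most. The 5 highest Pearson correlations of log2 values were with Mir-145_5p (0.83), Mir-143_3p (0.80), Mir-1-P1_3p (0.80), Mir-145_3p* (0.79) and Mir-150_5p (0.76). Mir-1 is a muscle miRNA and Mir-150 a lymphocyte miRNA. The lowest were Mir-139_3p* (-0.76), an arm of the endothelial and angiogenesis list, followed by Mir-154-P13_3p (-0.74) and Mir-337_5p (-0.74). Of 472 arms 0 were called at an adjusted p below 0.05 (0%), and 47 had an unadjusted p below 0.05. The correlation with Mir-145_5p dropped to 0.19 with library totals as the scale. Those with Mir-143_3p, Mir-1-P1_3p, Mir-145_3p* and Mir-150_5p were 0.66, 0.70, 0.64 and 0.57. On that scale Mir-139_3p* was at -0.13, Mir-154-P13_3p at 0.09 and Mir-337_5p at -0.08, so their low values depended on the scaling.

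Mir-145_5p itself ranged from 434 to 2340 normalized counts in the exercised lineage and from 1120 to 2192 in the sedentary lineage. Its lowest library, exercised replicate 1, was also the lowest in Mir-126_3p. Against Mir-126_3p alone it had the highest correlation (0.87), and 0 of 472 arms were called there (0%; 64 at an unadjusted p below 0.05).

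The arms that varied with Mir-126_5p were others. Of 472 arms 29 were called by Pearson's r (6.14%), 12 with r above 0 and 17 below, but only 1 by Spearman's rho. That arm was Let-7-P12_3p* (rho = 0.92, adjusted permutation p = 0.0425). Highest in r were Mir-17-P1a_3p* (0.85), Mir-124-P1_3p (0.85), Let-7-P12_3p* (0.85), Mir-324_3p* (0.83) and Mir-431_5p (0.81). Mir-124 is the most typical neuronal miRNA. Lowest were Mir-1198_5p (-0.86), Mir-132-P2_5p (-0.86), from a neuronal activity-regulated cluster, and Mir-10-P2b_5p (-0.84). Without the 2 libraries farthest from the 5p median, the 5 highest lay between 0.58 and 0.79. On the same libraries Mir-1198_5p was at -0.79, Mir-132-P2_5p at -0.74 and Mir-10-P2b_5p at -0.57. With library totals as the scale the 5 highest lay between 0.90 and 0.92. The lowest were weaker on that scale: Mir-1198_5p was at -0.65, Mir-132-P2_5p at -0.63 and Mir-10-P2b_5p at -0.42. The separate lists for 3p and 5p were added after the values had been seen.

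The vessel-linked arms around Mir-126 did not differ by lineage either. The list of endothelial and angiogenesis-linked families (Mir-221, Mir-23, Mir-24, Mir-27, Mir-92, Mir-130, Mir-139 and Mir-210) held 31 arms, of which 26 were tested. Of these 6 had a fold above 0 and 20 below, with a median of -0.08 and 0 called. Over all 474 arms 236 were above and 238 below, with a median of -0.00. With library totals as the scale, folds lay 0.09 higher in the median of all arms, and the list had 13 above and 13 below 0 (median 0.00) against 308 above and 166 below over all arms (median 0.08). As a share of all counts the list took 2.91% ± 0.44 in the grandsons of exercised and 2.70% ± 0.25 in those of sedentary males (n = 6 each, SD; exact two-sided permutation p = 0.368). Its 3 most abundant arms, Mir-27-P1_3p, Mir-24-P1_3p and Mir-139_5p, had folds of 0.04, 0.02 and 0.00. In the mural and mesenchymal list 2 of 9 arms were above 0 on either scale, with a median of -0.19 (-0.10 with library totals) and 0 called. Mir-143_3p was at -0.13, Mir-145_5p at -0.19 and Mir-199-P1_3p at 0.00.

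Other cell types were read from lists of the same kind. In the red blood cell list, which bears on blood left in the tissue, 1 of 5 arms was above 0 (median -0.27). Its main arms Mir-486_5p, Mir-451_5p and Mir-144_3p had folds of -0.20, -0.65 and -0.27. The list made up 0.00732% to 0.0149% of counts, against 1.11% to 1.49% for Mir-126. In the microglia and leukocyte list 6 of 11 arms were above 0 (median 0.03), with Mir-146-P2_5p at -0.37, Mir-150_5p at -0.05 and Mir-146-P1_5p at -0.29. In the choroid plexus list 0 of 10 were above 0 (median -0.23), with Mir-1298_5p at -0.22, Mir-34-P2b_5p at -0.25 and Mir-204-P1_5p at -0.35. In the neuron list 12 of 21 were above 0 (median 0.07), with Mir-128-P1_3p at -0.18, Mir-218-P1_5p at 0.00 and Mir-7-P1_5p at -0.56. Over all arms 236 of 474 were above 0. With library totals as the scale 308 of 474 were. On that scale 15 of 21 neuron arms (median 0.16) and 7 of 11 microglia and leukocyte arms (0.11) were above 0. So were 1 of 10 choroid plexus arms (-0.14) and 1 of 5 red blood cell arms (-0.18).

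No arm of these lists was called in limma. The adjusted p of the 18 arms named from them lay between 0.532 and 0.998. Neuronal arms took 12.6% to 15.7% of all counts, the largest share of the 6 lists, and mural arms 2.90% to 7.61%. Choroid plexus arms took 0.515% to 2.76%, a spread of several-fold between libraries of both lineages. Values listed at 0 numbered 23 in the endothelial list, 4 in the mural list and 1 each in the red blood cell and choroid plexus lists, and none of the 18 named arms was at 0 in any library. The part of these cell types in the lineage values of Mir-126 was not tested.

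**Figure D4:**
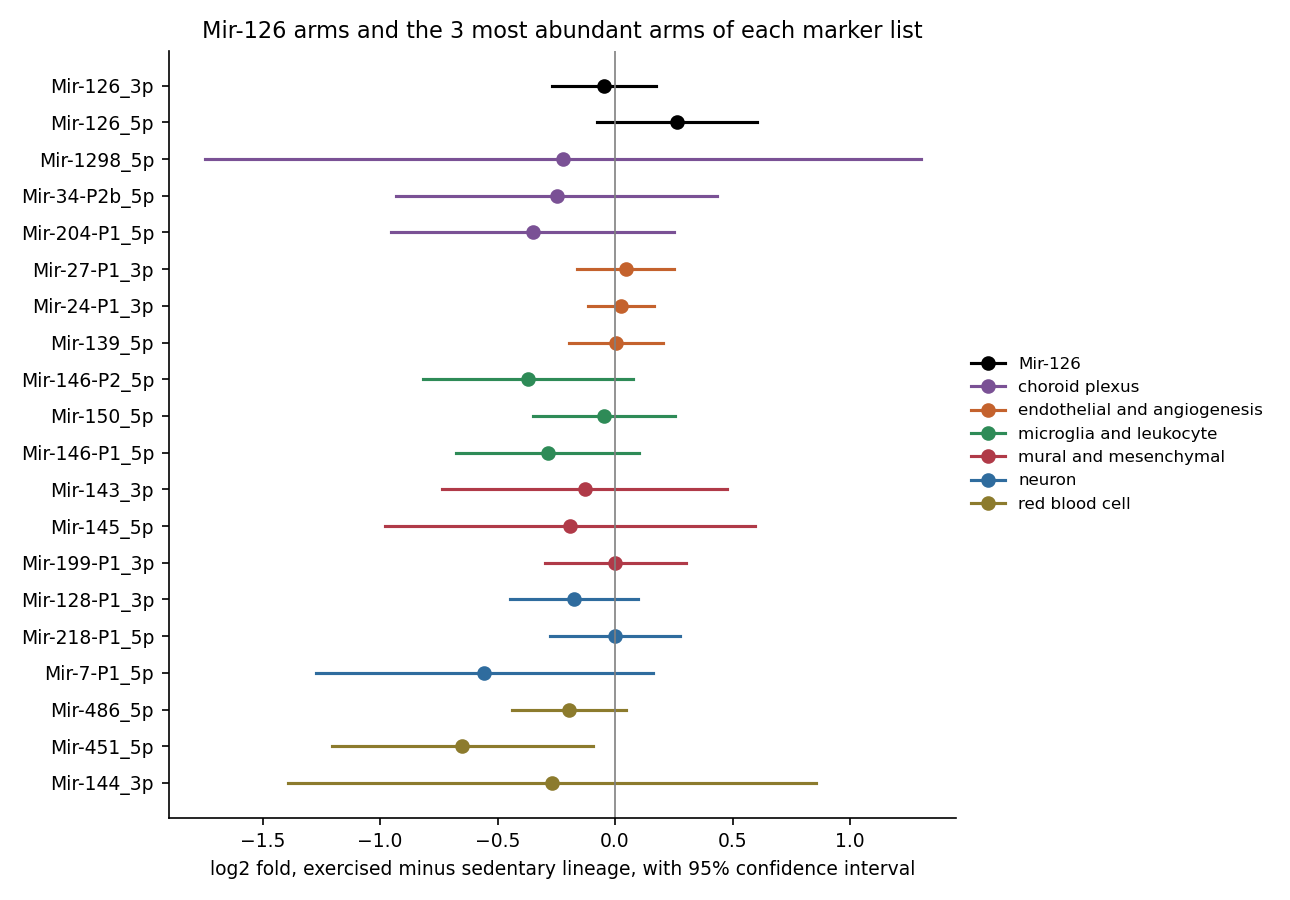
Limma folds (log2, exercised minus sedentary lineage) of both Mir-126 arms and of the named arms of the marker lists, with 95% confidence intervals. Mir-126_3p is at -0.05 and Mir-126_5p at 0.26, and no arm shown passed the adjusted threshold.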

How the data were processed

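Small RNA from 12 hippocampi (6 per lineage, grouped by title) was sequenced; the labels give each mouse its own number. The authors' deposited values are a signal that is never negative: reads on each arm scaled by a library-specific size factor. Bowtie 1.3.0, DESeq2 and the mouse build mm10 are named in the submitters' processing notes. How adapters, mismatches and reads with several matches were handled is not given in the sources used here. All values were whole multiples (within 0.01) of 1 step per library, which gave the depth of 6862623 to 10219856 reads. PCR copies were not told apart from molecules, so counting errors cover counting only. No within-lineage pair of libraries agreed within sampling noise.

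Arms with a mean of at least 10 (474 of 513) were tested with limma 3.58.1 in R 4.3.3 (mean-variance trend, log2(value + 1), Benjamini-Hochberg over all arms), and checked on simulated data. The log scale understates changes of low arms. Ratios were fitted over 155 hairpins. Single values used exact permutation tests (924 assignments), correlations 100000 permutations (scipy 1.17.1). RNAfold 2.7.2 folded the hairpin. Mouse numbers did not pair libraries: same-numbered libraries correlated at -0.17 to 0.15.

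Members and lists were chosen with earlier results of these data known. Named arms were both Mir-126 arms, their 2 neighbours in mean on each side, the 3 most abundant tested arms per list, the 5 most and 3 least correlated with summed Mir-126, seed sharers and the neighbouring hairpins in ratio. Alternatives covered scaling, filter, pseudocount, moderation, left-out libraries and stems, the replicate block and correlated stems.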

Additional observations from a re-analysis of the deposited data

Results flagged for a closer look

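Among 66 groups of 6 libraries (33 measures in 2 lineages), 5 had 1 library far from the others, and chance flags about 1 in 20 groups. The log2 ratio of Mir-126 5p to 3p was -2.71 in exercised replicate 1, against -3.75 to -3.47 in the other 5 exercised libraries. That library stood out beyond Mir-126. Its sum of normalized counts (6458450) was the lowest of all libraries. It was also the lowest in Mir-7-P1_5p (22934) and Let-7-P3_5p (56167) and the highest in Mir-124-P1_3p (72090). Let-7-P2_5p had 11911 normalized counts in sedentary replicate 1, against 6416 to 7901 in the others. Mir-145_5p had 2192 in sedentary replicate 6, against 1120 to 1413. Mir-1-P1_3p had 7282 in sedentary replicate 5, against 3023 to 4296. Mir-451_5p had 550.4 in sedentary replicate 2, against 185 to 321.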

How the results depend on the processing

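No arm was called in any of 25 alternatives (16 to 57 arms at an unadjusted p below 0.05). The limma fold of Mir-126_3p (-0.05) changed sign in 5 of 25: 0.041 with library totals, 0.038 with upper-quartile scaling, 0.13 without the R31 libraries, 0.037 without the S41 libraries and 0.0079 without exercised replicate 1. Library totals moved the folds of all arms by 0.09 in the median. The 3p fold was -0.22 without the R41 libraries (adjusted p = 0.555 in limma). With each library left out in turn it ran from -0.10 to 0.0079. The Mir-126_5p fold stayed between 0.15 and 0.37 in 25 of 25 (adjusted p 0.454 to 0.833 in limma), with a left-out range of 0.16 to 0.33. The ratio difference stayed between 0.15 and 0.47 in 20 of 20 (left-out range 0.16 to 0.39). The difference in the share of counts (0.058 points) was -0.034 points without the S11 libraries, 0.15 without the S41 libraries and 0.015 to 0.091 with each library left out. The causes of these changes were not tested. With the mouse number as a replicate block, the fold was -0.05 for 3p and 0.26 for 5p (adjusted p = 0.904 and 0.720 in limma), the ratio difference was 0.31 (adjusted p = 0.652) and 0 arms were called; 16 against 34 had an unadjusted p below 0.05. Of 6 numbers, 1 matched its own best. A count model was planned for the case of raw counts and was not run, because the deposited values are scaled by size factors. Reads recovered from the steps were not used for it either. The smallest positive value of a library spanned 2 to 6 steps, so that low values alone did not fix the step. With 6 libraries per lineage, the 95% interval of a fold reached 0.22 log2 to each side for 3p and 0.34 for 5p.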
